A study of Mus musculus with 8 samples.

Results

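The genes described here encode the subunits of the mitochondrial respiratory chain and of the ATP synthase, together with 8 assembly factors of complex I whose symbols share its prefix. They were taken by symbol from the array: probe sets with a single platform symbol that starts with Nduf, Uqcr or Atp5, that is Sdha, Sdhb, Sdhc, Sdhd or Cyc1, or that starts with Cox followed by a number from 4 to 8. This gave 90 genes from 99 probe sets, out of 22180 genes measured. The samples were whole-heart RNA, labelled as myocardium, from 4 female and 4 male mice aged 8 months. All 8 mice were Pcyt2+/-, so females and males alike are heterozygous for the gene of the enzyme that controls phosphatidylethanolamine synthesis from ethanolamine. Hearts were taken 3 to 4 hours after lights on and snap frozen, and no wild-type mice enter the comparison. Sex is therefore the comparison that the design holds, and each difference below is females minus males.

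The respiratory chain passes electrons from NADH, at complex I, and from succinate, at complex II, through ubiquinone to complex III, and through cytochrome c to complex IV, where oxygen is reduced. Complexes I, III and IV pump protons across the inner mitochondrial membrane, and ATP synthase uses the proton gradient to make ATP, on which the beating heart depends. Most subunits are encoded in the nucleus, a few in mitochondrial DNA. Some complex IV subunits exist as a ubiquitous form and as a second form found in heart and skeletal muscle.

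The deposited values are on a log scale, taken as log2, and are relative to each probe set's own median over the 8 arrays. A value of 0.1 therefore means that a heart lay 0.1 log2 units above the middle of the 8 hearts for that gene. Levels of different genes cannot be compared, and whether a gene is expressed cannot be read from these values. The 14 cardiomyocyte genes measured (Myh6, Actc1, Tnnt2 and others) had list means between -0.094 and 0.003 in females and between -0.098 and 0.029 in males. Being centred, these values cannot show whether the labelled tissue expresses the genes. Other tissue varied more: the mean of 9 atrial genes ran from -0.92 to 0.40 in females and from -0.77 to 0.18 in males. The mean of 13 fast skeletal muscle genes ran from -0.21 to 0.26 in females and from -0.19 to 0.67 in males.

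As a group, the respiratory chain genes showed small differences between females and males, in both directions. Of the 90 genes, 46 had a higher mean in females and 44 a lower one. The median difference was 0.0014, beside -0.00058 over all 22180 genes, and the differences ran from -0.130 (Sdhd) to 0.185 (Cox7c). None of the 90 passed an adjusted p under 0.05 in the limma fit across all genes, a threshold that 0.0316% of all genes passed. At an unadjusted p under 0.05 there were 3 genes, Sdhd lower in females and Cox7c and Cox7a2 higher, which is 3.33% of the members beside 6.96% of all genes. The values of the sexes did not overlap for 1 gene, Sdhd, which is 1.11% of the members beside 3.74% of all genes. Both shares lie below those of all genes. The count at the unadjusted threshold rested on which arrays were used: it was 8 without female 4, 7 without male 3, and 5 without female 3 or without male 4. It was 6 with the fast skeletal genes as a covariate. The share of all genes at this threshold is not given here for these refits. Whether the members changed more than other genes can therefore not be told. The count at the adjusted threshold was 0 in each of the 20 alternatives run.

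The 95% interval of the difference lay within a 1.5-fold change in either direction for all 90 genes, beside 99.4% of all genes. It lay within 1.2-fold for 79 of 90 (87.8%), beside 87.7% of all genes. The median size of a difference, regardless of direction, was 0.046 for the members and 0.038 for all genes. In a whole heart, fewer cells of a type and less RNA per cell cannot be told apart, so these values do not say whether mitochondrial content differed.

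**Figure D1:**
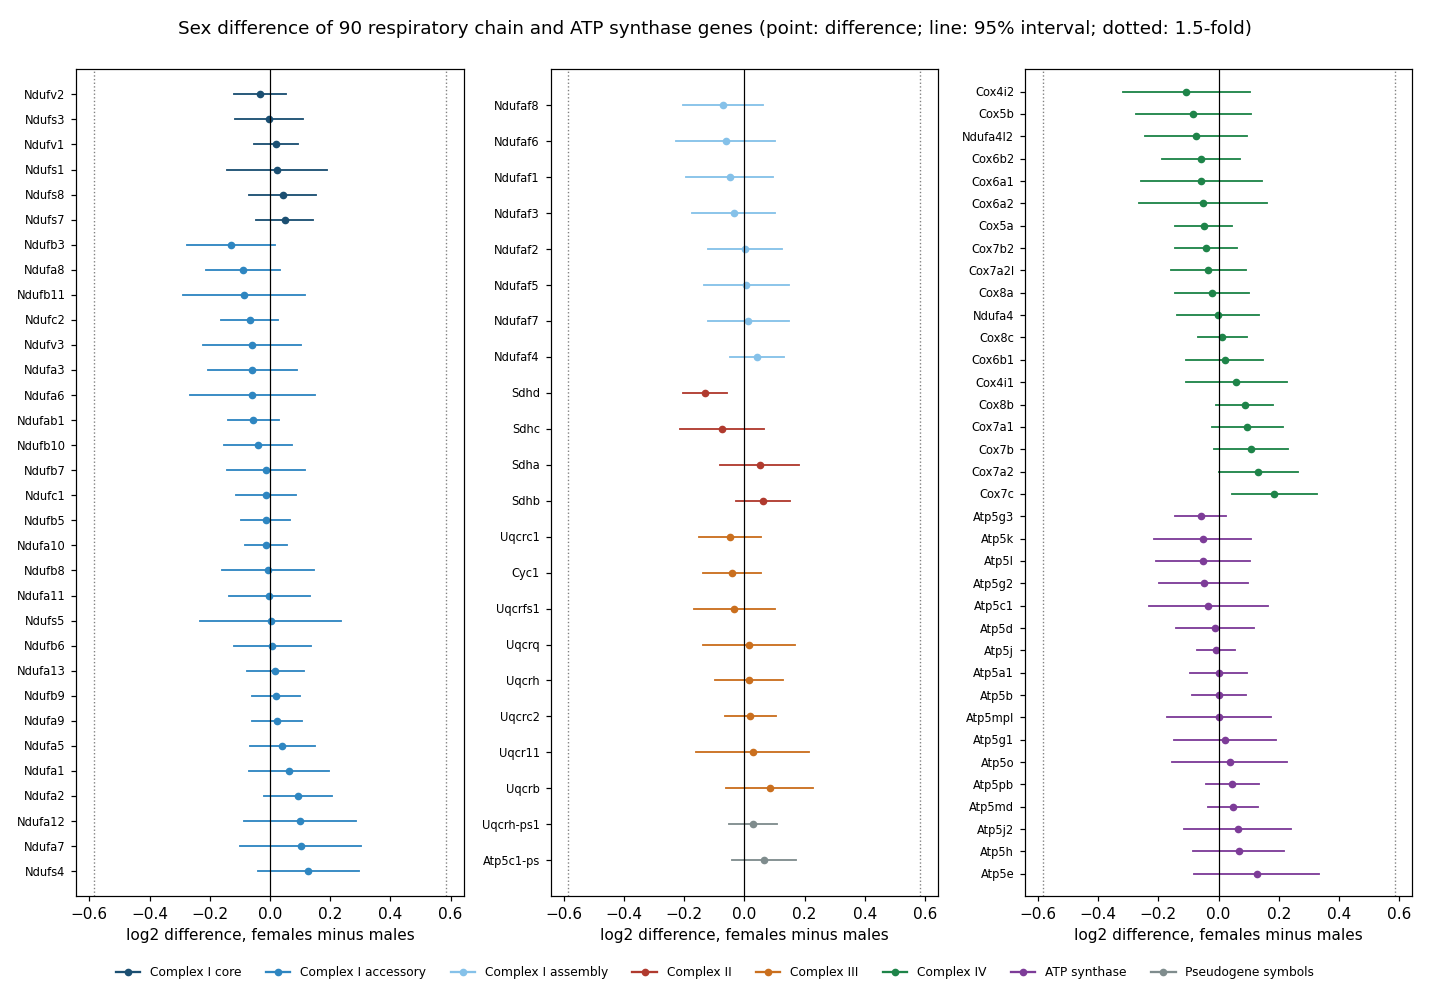
Difference of each of the 90 genes in log2 units, females minus males (x axis), by complex (colour), with its 95% interval as a line and a 1.5-fold change in either direction as dotted lines. All 90 intervals lie inside the dotted lines, and only those of Sdhd, Cox7c and Cox7a2 leave out 0.

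Complex I takes electrons from NADH and is the largest of the complexes. Its core subunits, some of which carry the flavin and the iron-sulfur clusters, are surrounded by the accessory subunits. The assembly factors help to build the complex without staying in it. Of 6 nuclear core subunits measured, 4 were higher and 2 lower in females, with a median difference of 0.022. Of 26 accessory subunits, 11 were higher and 15 lower, with a median of -0.0099, and of 8 assembly factors 4 were higher and 4 lower, with a median of -0.016. None of these 40 genes had an unadjusted p under 0.05.

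Among the core subunits, the smallest p-values were those of Ndufs7, Ndufs8 and Ndufv2. Ndufs7, which carries the iron-sulfur cluster next to the ubiquinone site, had values of 0.076, 0.0046, -0.049 and 0.110 in females 1 to 4, against -0.025, -0.057, 0.034 and -0.0046 in males 1 to 4. The sexes overlapped, and the difference of 0.049 ± 0.042 (SE) had an adjusted p of 0.893 in limma. Ndufs8, another iron-sulfur subunit, averaged 0.017 ± 0.064 in females and -0.026 ± 0.081 in males (SD, n = 4 each). Ndufv2, a subunit of the NADH-oxidising part, averaged -0.031 ± 0.064 in females and 0.0016 ± 0.021 in males (SD, n = 4 each). Ndufv1, which binds NADH and the flavin, held a narrow range, with all 8 hearts between -0.050 and 0.052 and a difference of 0.020.

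Of the accessory subunits, Ndufb3, part of the membrane arm, had values of -0.130, 0.0017, 0.048 and -0.047 in females 1 to 4, against -0.0017, 0.170, 0.232 and -0.0095 in males 1 to 4. Males 2 and 3 stood above every female heart, while males 1 and 4 lay among the females. Its difference was -0.130 ± 0.064 (SE, limma adjusted p = 0.735). Ndufs4, without which mouse complex I is unstable, had values of 0.151, 0.232, -0.023 and -0.048 in females 1 to 4, against -0.170, -0.099, 0.023 and 0.049 in males 1 to 4. Females 1 and 2 were the highest hearts and males 1 and 2 the lowest, and the other hearts lay between them. Its difference was 0.127 ± 0.074 (SE, limma adjusted p = 0.786). Ndufa2, a small subunit of the matrix arm, differed by 0.093 ± 0.050 (SE, limma adjusted p = 0.759), with overlap between the sexes. Ndufs5, a subunit on the intermembrane side, varied most of all 90 genes, with an SD of 0.160 over the 8 hearts, yet its means differed by only 0.0018. Its highest value was 0.257 in female 3 and its lowest -0.198 in male 2. A second probe set, shared with Ndufs5-ps and left out, did not follow this, with -0.041 in female 3 and 0.00075 in male 2.

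The assembly factors with the smallest p-values were Ndufaf8, Ndufaf4 and Ndufaf6. Ndufaf8 averaged -0.049 ± 0.111 in females and 0.022 ± 0.064 in males, a difference of -0.071. Ndufaf4 averaged 0.023 ± 0.056 in females and -0.020 ± 0.048 in males, a difference of 0.043. Ndufaf6 averaged -0.022 ± 0.054 in females and 0.039 ± 0.158 in males (SD, n = 4 each), where male 3 alone reached 0.263, and without male 3 the difference turned to 0.014. For each of these 3 factors the difference was smaller than the larger SD.

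Complex II is succinate dehydrogenase, which also works in the citric acid cycle. Sdha carries the flavin and Sdhb the iron-sulfur clusters, and Sdhc and Sdhd anchor them in the membrane and form the ubiquinone site. The catalytic pair had higher means in females, with differences of 0.062 ± 0.040 for Sdhb and 0.051 ± 0.057 for Sdha. The membrane pair had lower ones, with -0.130 ± 0.033 for Sdhd and -0.073 ± 0.062 for Sdhc (all ± SE). Of these, only Sdhd had an unadjusted p under 0.05 in limma. Over the 8 arrays, the mean pairwise Pearson r of the 4 transcripts was -0.26.

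Sdhd was the member in which the sexes were most clearly apart. Its values were -0.042, -0.087, -0.045 and -0.023 in females 1 to 4, against 0.108, 0.023, 0.108 and 0.085 in males 1 to 4. Every female heart lay below every male heart, by 0.046 between the nearest ones. The mean was 1.09-fold lower in females, a log2 difference of -0.130 with a 95% interval from -0.204 to -0.056. This did not pass over all genes (limma adjusted p = 0.483, and 0.356 to 0.754 over 18 alternatives), and 144 genes had a smaller p. Over the same 18 alternatives the difference stayed between -0.150 and -0.117. Timm8b, which encodes a small import chaperone of the intermembrane space and is the next protein-coding gene to Sdhd on chromosome 9, differed by 0.022 ± 0.054 (SE), with overlapping sexes. The other complex II genes overlapped. Sdhc had values of -0.057, -0.051, -0.033 and 0.159 in females 1 to 4, against -0.0037, 0.0037, 0.170 and 0.138 in males 1 to 4, so that 3 females lay below all males and female 4 among the highest. Sdhb had values of 0.019, 0.020, 0.023 and -0.019 in females 1 to 4, against -0.045, -0.043, 0.027 and -0.145 in males 1 to 4.

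Because Sdhd is the member whose sexes were apart, the 250 bases upstream of its annotated start are shown, from RefSeq on the build GRCm38.p6 at chr9:50603850-50604099, minus strand, 5′ to 3′. Capitals mark the matches of 2 motifs known from promoters of respiratory genes, both searched on either strand. They are that of the nuclear respiratory factor NRF1 (searched as CGCNTGCGC) and that of ETS factors such as the GA-binding protein (searched as CCGGAAG). Whether the matches bear on the difference of Sdhd, or belong to a neighbouring gene, was not tested.
Sdhd: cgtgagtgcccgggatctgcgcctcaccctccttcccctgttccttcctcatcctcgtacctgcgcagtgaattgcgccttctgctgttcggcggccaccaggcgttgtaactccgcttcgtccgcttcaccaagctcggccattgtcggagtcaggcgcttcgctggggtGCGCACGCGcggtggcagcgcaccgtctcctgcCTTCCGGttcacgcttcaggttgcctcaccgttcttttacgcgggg

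Motif matches of this kind were more frequent upstream of these genes than upstream of genes in general. Of 90 members, 72 had an upstream sequence in the RefSeq table, in 77 windows of 250 bases. The NRF1 motif was found in 14 of them (18.2%), beside 5.16% of all 32851 windows, and the ETS motif in 14 (18.2%), beside 6.91%. The motif of the estrogen-related receptors (TCAAGGTCA) was found in 1 window (1.30%, beside 0.387%), that of Atp5g3, and the motif of YY1 (AAGATGGCG) in 1 (1.30%, beside 0.606%), that of Atp5j. All 4 motifs were searched on both strands, and 4 genes had both an NRF1 and an ETS match: Sdhd, Cox6a1, Atp5h and Atp5l. The member windows were also richer in G and C, with a median of 57.2% beside 52.4% of all windows, and its part in the matches was not tested.

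Complex III, the cytochrome bc1 complex, takes electrons from ubiquinol and hands them to cytochrome c. Of its 8 nuclear genes measured, 5 were higher and 3 lower in females, with a median difference of 0.016 and none at an unadjusted p under 0.05. Uqcrb, a subunit that binds ubiquinone, had values of 0.172, 0.187, 0.013 and -0.082 in females 1 to 4, against -0.074, -0.024, -0.013 and 0.068 in males 1 to 4. Females 1 and 2 stood above all male hearts and female 4 below all of them. Its difference was 0.084 ± 0.064 (SE, limma adjusted p = 0.864). On a second Uqcrb probe set, shared with Gm10767 and left out, females ran from -0.045 to 0.016, within the male range of -0.300 to 0.131. Uqcrc1, a core protein that faces the matrix, averaged -0.024 ± 0.064 in females and 0.024 ± 0.064 in males. Cyc1, the cytochrome c1 subunit, averaged -0.0020 ± 0.0078 in females and 0.040 ± 0.082 in males (SD, n = 4 each). All 4 female values of Cyc1 lay between -0.013 and 0.0052, whereas males 3 and 4 reached 0.121 and 0.10. The Rieske iron-sulfur protein gene Uqcrfs1 differed by -0.034 ± 0.060 (SE).

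Complex IV, cytochrome c oxidase, had the largest single difference. Counting Ndufa4 and Ndufa4l2, which carry complex I names although Ndufa4 is now placed in complex IV, 8 of its 19 nuclear genes were higher and 11 lower in females, and the median difference was -0.022. The 5 with the smallest p, Cox7c, Cox7a2, Cox8b, Cox7b and Cox7a1, had higher means in females, whereas Cox6a1, Cox6a2, Cox6b2, Cox7b2 and Cox8a had lower ones. Cox7c, which has a single form in all tissues, had values of -0.039, 0.219, 0.087 and 0.133 in females 1 to 4, against -0.170, -0.091, 0.039 and -0.119 in males 1 to 4. Females 2, 3 and 4 lay above every male heart, and female 1 was below male 3. Its difference was 0.185 with a 95% interval from 0.044 to 0.327, a 1.14-fold higher mean in females (limma adjusted p = 0.614, and 0.428 to 0.773 over 18 alternatives). Cox7a2, the ubiquitous form of subunit VIIa, had values of 0.114, 0.199, 0.015 and -0.035 in females 1 to 4, against -0.132, -0.107, -0.015 and 0.022 in males 1 to 4. Females 1 and 2 were highest and males 1 and 2 lowest, with the other hearts mixed. Its difference was 0.131 with a 95% interval from 0.00023 to 0.262 (limma adjusted p = 0.718).

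The other complex IV genes did not reach an unadjusted p under 0.05. Cox7b, an X-linked small subunit, had values of 0.080, 0.084, -0.080 and 0.067 in females 1 to 4, against -0.183, -0.089, -0.014 and 0.0064 in males 1 to 4. Females 1, 2 and 4 lay above all males and female 3 among the lowest hearts, and the difference was 0.108 ± 0.054 (SE, limma adjusted p = 0.743). The larger nuclear subunits Cox4i1, Cox5a and Cox5b differed by 0.059, -0.050 and -0.084, and each of these differences was smaller than the larger SD of its groups. Cox7a2l, a relative of subunit VIIa that joins complexes III and IV into supercomplexes, differed by -0.034 ± 0.055 (SE).

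**Figure D2:**
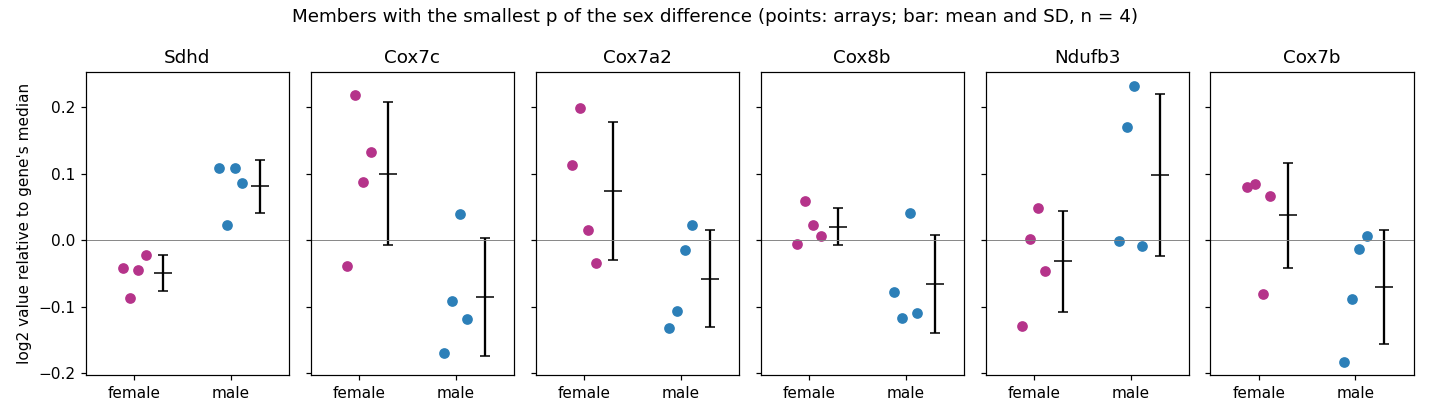
Values on each array (points, log2 relative to the gene's median over 8 arrays) of the 6 genes with the smallest p, females on the left and males on the right of each panel, with mean and SD (bars, n = 4). Only for Sdhd do the female and male points not overlap.

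Subunits VIa, VIIa and VIII of complex IV each have a form found in heart and skeletal muscle (Cox6a2, Cox7a1 and Cox8b) and a ubiquitous form (Cox6a1, Cox7a2 and Cox8a). The balance between the forms was taken as the muscle form minus the ubiquitous form on each array, and females were compared with males by an exact two-sided permutation test, which cannot go below p = 0.0286 with 4 hearts against 4. None of the 3 balances passed this test. The genes themselves went in different directions: both forms of subunit VIIa had higher means in females, with differences of 0.095 ± 0.052 for Cox7a1 and 0.131 ± 0.058 for Cox7a2. Both forms of subunit VIa had lower ones, with -0.052 ± 0.094 for Cox6a2 and -0.057 ± 0.088 for Cox6a1. Of subunit VIII the muscle form Cox8b was higher by 0.086 ± 0.041, and the ubiquitous form Cox8a had a difference of -0.022 ± 0.055 (all ± SE). None of these 6 passed over all genes.

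For subunit VIIa, Cox7a1 minus Cox7a2 was -0.096, -0.081, -0.049 and 0.035 in females 1 to 4, against 0.131, 0.00063, 0.025 and -0.201 in males 1 to 4. Females 1 to 3 lay below males 1 to 3, while male 4 was the lowest heart. The difference was -0.036 (95% interval -0.220 to 0.148, exact permutation p = 0.686, adjusted over 3 pairs 0.971). It turned to 0.011 without male 1 and to 0.057 without the 3 arrays with the most Myh4. For subunit VIII, Cox8b minus Cox8a was 0.0099, 0.183, 0.065 and -0.143 in females 1 to 4, against -0.104, -0.091, -0.00066 and -0.126 in males 1 to 4. Females 1, 2 and 3 lay above all males and female 4 below all of them. This difference of 0.109 (95% interval -0.070 to 0.287) was the largest of the 3, with an exact permutation p of 0.229 and 0.686 after adjustment. For subunit VIa, Cox6a2 minus Cox6a1 was 0.117, -0.233, 0.139 and 0.103 in females 1 to 4, against 0.068, -0.012, 0.095 and -0.046 in males 1 to 4. Female 2 was far below the other 7 hearts, and the difference of 0.0050 (95% interval -0.226 to 0.236, exact permutation p = 0.971, also after adjustment) had no settled direction, running from -0.031 to 0.093 when single arrays were left out.

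The intervals leave changes of the balance up to about 0.29 log2 units possible. The 2 forms of subunit VIa followed each other over the hearts, with a Pearson r of 0.63 over 8 arrays, those of subunit VIIa with 0.50, and those of subunit VIII did not (-0.15). The lowest value of both subunit VIa forms was in female 1, at -0.221 for Cox6a2 and -0.338 for Cox6a1, and without that heart the difference turned to 0.010 for Cox6a2 and to 0.033 for Cox6a1. Averaged over the 3 subunits, the muscle forms were at -0.070, 0.0030, 0.026 and 0.056 in females 1 to 4, against -0.027, -0.110, 0.076 and -0.095 in males 1 to 4. Males 2 and 4 thus had the lowest mean of the muscle forms and male 3 the highest. Skeletal muscle also uses the muscle forms, and males 2 and 1 had the highest mean of the 13 fast skeletal genes, at 0.67 and 0.47, with male 4 at -0.14. Among the myosins of that list, Myh4 ran from -0.47 to 1.03 in females and from -0.69 to 2.23 in males. With the mean of the fast skeletal genes as a covariate, Cox7a1 minus Cox7a2 differed by -0.018, Cox8b minus Cox8a by 0.113 and Cox6a2 minus Cox6a1 by -0.0060, the last with its sign turned. Without the 3 arrays with the most Myh4, Cox8b minus Cox8a differed by 0.098 and Cox6a2 minus Cox6a1 by -0.022.

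**Figure D3:**
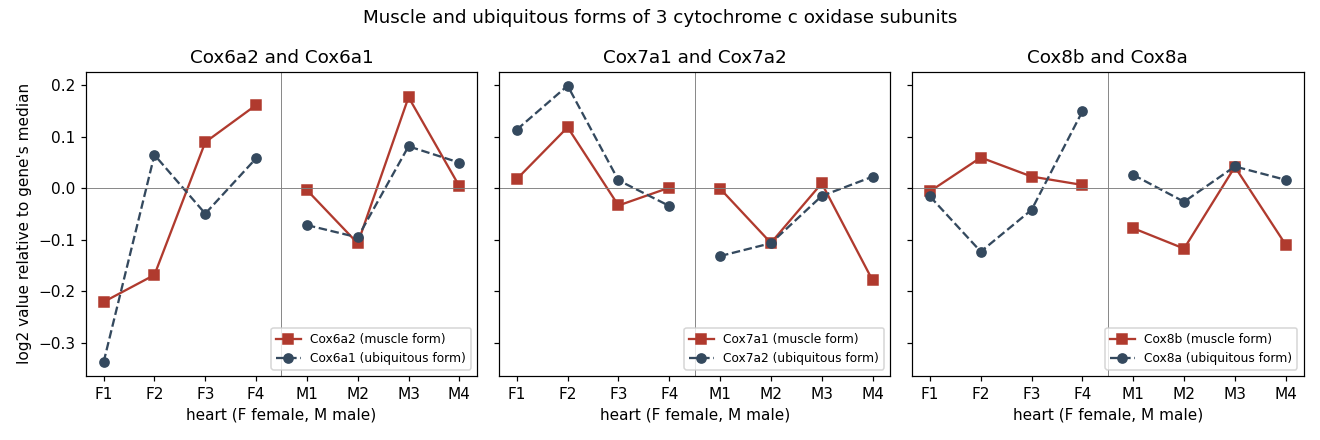
Log2 values relative to each gene's median (y axis) of the muscle form (squares) and the ubiquitous form (circles) of 3 complex IV subunits in females 1 to 4 (left) and males 1 to 4 (right of the grey line); lines join the hearts of a sex only to guide the eye. Both forms of subunit VIa are lowest in female 1, and both forms of subunit VIIa are highest in female 2.

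To set the forms beside each other, the 250 bases upstream of the annotated starts are shown for 5 of these genes, from RefSeq on the build GRCm38.p6, 5′ to 3′, with capitals again marking NRF1 and ETS matches. The windows are chr5:115348959-115349208, minus strand, for Cox6a1, chr7:30183921-30184170, plus strand, for Cox7a1, chr9:79759854-79760103, minus strand, for Cox7a2, chr7:140900447-140900696, minus strand, for Cox8b, and chr19:7217617-7217866, minus strand, for Cox8a. The Cox6a1 window held 3 NRF1 matches, a pair of them overlapping on opposite strands, and 1 ETS match. The letters searched were not found in the other 4 windows.
Cox6a1: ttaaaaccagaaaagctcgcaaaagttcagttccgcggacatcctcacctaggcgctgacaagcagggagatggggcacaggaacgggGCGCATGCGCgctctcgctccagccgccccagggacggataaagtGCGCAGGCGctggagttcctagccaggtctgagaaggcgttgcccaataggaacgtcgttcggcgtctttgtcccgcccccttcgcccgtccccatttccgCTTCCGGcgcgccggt
Cox7a1: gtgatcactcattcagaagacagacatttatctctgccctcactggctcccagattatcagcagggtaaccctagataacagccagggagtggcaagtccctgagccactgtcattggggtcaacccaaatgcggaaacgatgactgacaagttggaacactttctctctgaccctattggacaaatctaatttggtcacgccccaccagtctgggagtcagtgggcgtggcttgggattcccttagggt
Cox7a2: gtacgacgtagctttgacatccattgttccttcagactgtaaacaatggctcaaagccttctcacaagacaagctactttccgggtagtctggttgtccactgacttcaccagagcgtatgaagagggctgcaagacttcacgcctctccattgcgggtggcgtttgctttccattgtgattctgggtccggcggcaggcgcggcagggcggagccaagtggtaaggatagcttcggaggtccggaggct
Cox8b: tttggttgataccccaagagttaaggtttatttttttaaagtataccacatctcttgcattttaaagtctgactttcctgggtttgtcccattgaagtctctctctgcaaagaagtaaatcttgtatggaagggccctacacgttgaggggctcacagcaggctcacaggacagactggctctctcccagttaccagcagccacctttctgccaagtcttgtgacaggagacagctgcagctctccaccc
Cox8a: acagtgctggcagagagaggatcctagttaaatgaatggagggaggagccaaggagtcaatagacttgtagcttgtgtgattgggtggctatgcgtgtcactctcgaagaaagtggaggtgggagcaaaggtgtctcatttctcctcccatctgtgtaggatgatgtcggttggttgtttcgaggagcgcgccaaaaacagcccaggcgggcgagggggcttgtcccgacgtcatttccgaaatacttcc

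Other subunits have forms known from other tissues or states. Cox4i2, a form of subunit IV known from lung and from low oxygen, had values of -0.033, -0.299, -0.136 and 0.187 in females 1 to 4, against 0.064, -0.076, 0.127 and 0.033 in males 1 to 4. Females held both the highest and the lowest heart. Cox4i2 minus the ubiquitous Cox4i1 differed by -0.166 (95% interval -0.545 to 0.212, exact permutation p = 0.314), and Ndufa4l2, which low oxygen induces, minus Ndufa4 by -0.074 (exact permutation p = 0.257). The testis forms gave differences of -0.078 for Cox6b2 minus Cox6b1, -0.151 for Cox7b2 minus Cox7b and 0.035 for Cox8c minus Cox8a, with exact permutation p-values of 0.486, 0.171 and 0.686. With these 5 pairs, all 8 balances had overlapping sexes.

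ATP synthase consists of a catalytic head in the matrix, a rotating ring and stalk, and a peripheral stalk that holds the head still. Of its 17 genes measured, 10 were higher and 7 lower in females, with a median difference of 0.0018 and none at an unadjusted p under 0.05. The catalytic subunit genes Atp5a1 and Atp5b were among the most even: their differences were 0.00096 ± 0.042 and 0.0018 ± 0.039 (SE). Atp5e, the epsilon subunit of the central stalk, had values of 0.035, 0.109, -0.035 and 0.078 in females 1 to 4, against -0.191, -0.182, 0.231 and -0.177 in males 1 to 4. Males 1, 2 and 4 lay below every female heart and male 3 above all of them. Its difference was 0.127 ± 0.092 (SE, limma adjusted p = 0.851), and 0.230 without male 3. The 3 genes of the ring subunit c, Atp5g1, Atp5g2 and Atp5g3, which encode the same mature protein, differed by 0.021, -0.050 and -0.060. Atp5g3 had the smallest p of the 17, with -0.100, -0.012, -0.062 and 0.020 in females 1 to 4, against -0.013, 0.012, 0.072 and 0.015 in males 1 to 4, and the sexes overlapped (limma adjusted p = 0.802). Atp5md, a small accessory subunit, differed by 0.048 ± 0.037 (SE), and Atp5j, coupling factor 6 of the peripheral stalk, varied least of all 90 genes, with every heart between -0.023 and 0.020.

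Single hearts of both sexes stood apart for many members. Male 3 held the highest value of 34 of the 90 genes (37.8%, beside 14.7% of all genes) and the lowest value of 0. There 73 of 90 genes (81.1%) lay above their median, beside 53.0% of all genes. Male 1 showed the opposite, with 25 genes (27.8%) above their median and the lowest value of 20 (22.2%, beside 14.2% of all genes). Female 2 followed male 3, with the highest value of 21 genes and 61 above their median, and female 1 held the lowest value of 18. The median of the 90 genes was -0.013, 0.028, 0.0019 and -0.012 in females 1 to 4, against -0.019, -0.019, 0.045 and -0.0017 in males 1 to 4. The shift in male 3 was thus about 0.045 log2 units, and the extremes fell in both sexes.

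In male 3 the median lay above 0 in every complex. It was 0.028 for the complex I core, 0.062 for the accessory subunits, 0.031 for the assembly factors, 0.067 for complex II, 0.073 for complex III, 0.042 for complex IV and 0.010 for ATP synthase. In male 3, 8 of 8 complex I assembly factors and 22 of 26 accessory subunits lay above 0. The 71 genes of the mitochondrial ribosome, which makes the subunits encoded in mitochondrial DNA, also had their highest median in male 3, at 0.060, with 84.5% above 0. Other sets in male 3 varied. Of 10 genes encoded in mitochondrial DNA 80% lay above 0, and of 58 cytosolic ribosome genes 67.24%. Of 13 citric acid cycle genes it was 53.85%, beside 53.0% of all genes. Complex IV was lowest in male 2, at -0.076, and ATP synthase in male 1, at -0.047.

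**Figure D4:**
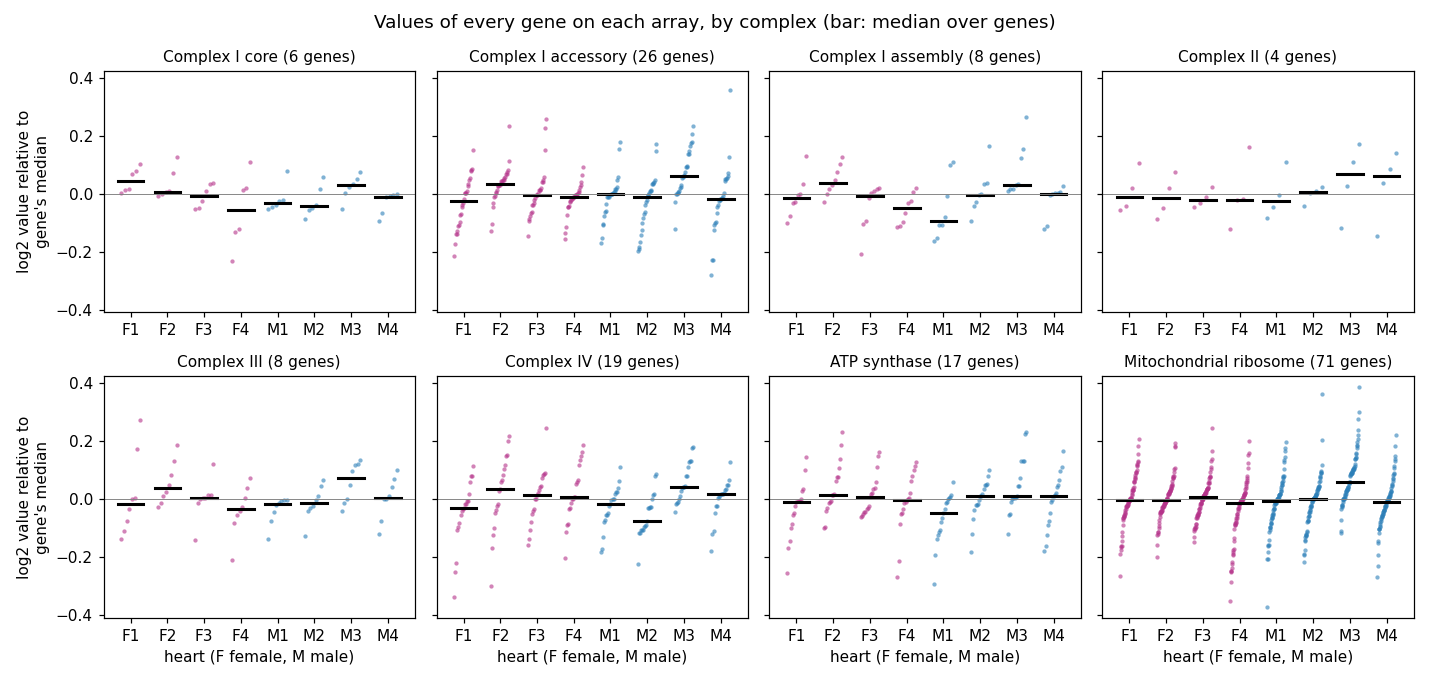
Log2 values relative to each gene's median (y axis) of every gene of each complex, and of 71 mitochondrial ribosome genes, in females 1 to 4 and males 1 to 4 (x axis), with the median over the genes as a bar. The bar of male 3 lies above 0 in all 8 panels.

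**Figure D5:**
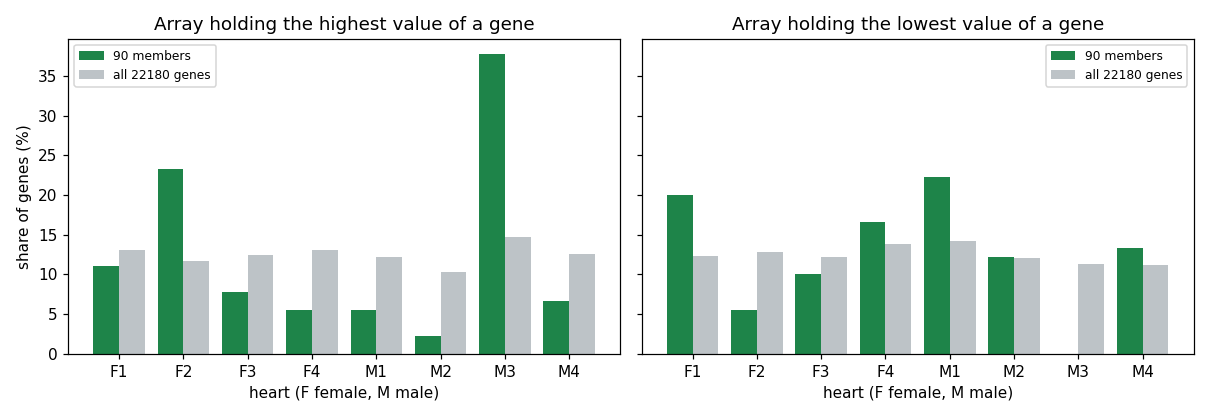
Share of genes in percent (y axis) whose highest value (left) or lowest value (right) fell in each heart, for the 90 members and for all 22180 genes, with females 1 to 4 left of males 1 to 4. Male 3 holds the highest value of 37.8% of the members and the lowest of 0.

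Markers of other tissue also differed between these hearts. Male 3 and female 1 had the least of the atrial light chain Myl7, at -0.95 and -1.04. The 8 brown adipocyte genes measured outside the members, of a cell type rich in mitochondria, had means of -0.226, 0.084, 0.128 and 0.044 in females 1 to 4, against -0.050, -0.169, 0.140 and -0.032 in males 1 to 4. Their median was 0.044 in female 3, against 0.043 in male 3. Ucp1, the uncoupling protein that defines brown fat, was at -0.67, 0.43, 0.71 and 0.18 in females 1 to 4, against -0.21, -0.62, 0.93 and -0.18 in males 1 to 4. In male 3, 6 of the 8 lay above 0, but Ppargc1a was at -0.158, its lowest value of all hearts. Of the 10 adipocyte genes, 20% to 80% lay above 0 in females, against 90% in male 3 and 20% to 30% in the other males. Of the 9 fibroblast genes, 0 lay above 0 in male 3. The 14 cardiomyocyte genes had means of -0.094 in female 4, against -0.098 in male 3, the lowest of the 8 hearts. In male 3, Nppa, which is also on the atrial list, was at -0.870 and Myh7 at -0.294. The median of the list was lowest in female 4, at -0.086, against -0.026 in male 3. Because values are centred, it cannot be said which of these markers are near 0 in level, and the part of other tissue in the shift was not tested. Without female 1 and male 3, the median difference of the members was 0.024, beside 0.0014 with all hearts.

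The members moved together only weakly. The mean pairwise Pearson r over the 8 arrays was 0.12 among the 90 genes and 0.15 within the sexes, beside 0.0015 among all genes. Other sets gave 0.11 (71 mitochondrial ribosome genes), 0.10 (58 cytosolic ribosome genes), 0.21 (10 mitochondrial DNA genes) and 0.039 (13 citric acid cycle genes). The value of the members was thus not particular to them. Within the members, r was as follows. It was 0.14 in the complex I core, 0.18 among the accessory subunits, 0.19 among the assembly factors, 0.048 in complex III and 0.087 in both complex IV and ATP synthase, each over the same 8 arrays. All pairs share the arrays and their scaling, so these are descriptions. The 5 genes outside the set whose profile was most like the mean of the 90 genes were 1700054K19Rik, Stxbp3-ps, Rnf31, Gm2695 and Fhl5, with Pearson r from 0.93 to 0.96 over 8 arrays, picked as the highest of all genes.

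The members lie on 19 chromosomes, 3 of them on the X. Besides Cox7b these are Ndufa1 and Ndufb11, accessory subunits of complex I. Ndufa1 had a difference of 0.063 ± 0.059 and Ndufb11 one of -0.087 ± 0.089 (SE). Ndufb11 reached 0.358 in male 4, the highest value of any member in any heart, against a female range from -0.088 to 0.084. A pair of members are named as pseudogenes, Atp5c1-ps and Uqcrh-ps1, which differed by 0.065 and 0.030. Without them the median difference was -0.00020.

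Some genes rested on more than 1 probe set or shared one. Among the 9 members with 2 probe sets, the probe sets of 2, Atp5d and Ndufa11, differed in direction. For Ndufa12 they differed by 0.148 and 0.049, and for Atp5e by 0.061 and 0.193. A further 10 probe sets named a member symbol together with another gene and were left out; Ndufb2, Ndufb4, Ndufs6, Uqcr10 and Cox6c were measured only there. Of these probe sets, the one shared by Ndufb2 and the kinase gene Adck2 had the largest difference, 0.279 ± 0.130 (SE), with 0.234, 0.441, 0.198 and -0.174 in females 1 to 4, against -0.330, -0.087, -0.050 and 0.050 in males 1 to 4. Females 1 to 3 were above all males and female 4 below males 2 to 4, and which gene gave the signal cannot be told apart.

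Of the 13 subunits encoded in mitochondrial DNA, 10 had a probe set of their own, and 7 of these were higher and 3 lower in females, with a median difference of 0.0012. Their median SD over the 8 hearts was 0.027, beside 0.087 for the 90 nuclear members and 0.075 for all genes. The smallest p-values were those of ND2 and ND3, both membrane subunits of complex I, which differed by 0.029 ± 0.035 and 0.023 ± 0.032 (SE). ND6, another complex I subunit, singled out after its values were seen, varied far more than the others, with an SD of 0.213 and values from -0.360 in female 1 to 0.051 in female 3, against -0.390 in male 4 to 0.218 in male 3. How far the array measures these abundant transcripts within its range is not known here.

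Among other genes of the pathway, a list of factors that build complexes II to V, or complex I under other names, held 39 genes. Of 36 measured, 14 had higher and 22 lower means in females, with a median difference of -0.034. None passed over all genes, 5 had an unadjusted p under 0.05, all lower in females (13.9%, beside 6.96% of all genes in either direction), and 3 did not overlap (8.33%, beside 3.74%). Cox19, a copper-handling protein needed for complex IV, had values of -0.120, -0.157, -0.079 and -0.049 in females 1 to 4, against 0.109, 0.094, 0.104 and 0.049 in males 1 to 4. Every female heart lay below every male heart, and the difference was -0.190 ± 0.034 (SE, limma adjusted p = 0.267, and 0.234 to 0.630 over 18 alternatives). Cox18, which inserts a mitochondrially encoded subunit into the membrane, differed by -0.175 ± 0.054 (SE, limma adjusted p = 0.571), with female 1 above male 2. The other 3 were Cox15, which makes heme A, Coa5, and Ttc19, a complex III factor, at -0.113, -0.141 and -0.068.

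Of 17 regulators of mitochondrial gene expression, 9 had higher and 8 lower means in females, and 2 had an unadjusted p under 0.05 (11.8%, beside 6.96% of all genes). Ppargc1a, the coactivator that drives mitochondrial biogenesis, had values of 0.065, 0.019, 0.205 and 0.096 in females 1 to 4, against -0.116, -0.091, -0.158 and -0.019 in males 1 to 4. The sexes did not overlap, and the difference was 0.192 ± 0.048 (SE, limma adjusted p = 0.481, and 0.459 to 0.738 over 18 alternatives). Ppargc1b, on the same list, went the other way, with a difference of -0.175 ± 0.080 (SE, limma adjusted p = 0.72) and overlapping sexes. Polrmt, the mitochondrial RNA polymerase, differed by -0.151 ± 0.053 (SE, limma adjusted p = 0.633). Of 13 citric acid cycle genes, 8 were higher and 5 lower, with 0 at an unadjusted p under 0.05, and Cs, citrate synthase, averaged -0.038 ± 0.079 in females and 0.054 ± 0.076 in males (SD, n = 4 each). Dlst, a subunit of the oxoglutarate dehydrogenase complex, differed by -0.074 ± 0.037 (SE). Of 16 carriers and electron shuttles, 6 had higher and 10 lower means, with 1 at an unadjusted p under 0.05 (6.25%, beside the same 6.96%). Among them Coq7, an enzyme of ubiquinone synthesis, differed by -0.114 ± 0.049 (SE) and the electron transfer flavoprotein gene Etfb by 0.088 ± 0.047 (SE), with limma adjusted p of 0.704 and 0.756.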

How the data were processed

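RNA from the hearts of 4 female and 4 male Pcyt2+/- mice was hybridised to 8 short-oligonucleotide arrays, from 100 ng of total RNA per the labels' protocols. The deposited table holds log2 values of 34351 probe sets, each with a median of 0 over the arrays (tolerance 1e-06); the log base and how the arrays were normalized and summarized were not given in the sources used here. Base 2 was assumed. Array medians lay between -0.0021 and 0.0023. With arrays, their number limits the precision, and the median standard error of the sex difference over genes was 0.0497. The labels call the samples biological replicates.

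Symbols came from the platform annotation. Of the probe sets, 23521 had 1 symbol, 1814 several (left out) and 9016 were unnamed here. Probe sets of a gene were averaged into 22180 genes, with no filter on low values. Females were compared with males by a linear model of sex alone in limma 3.58.1 (R 4.3.3, moderated by eBayes), adjusted by Benjamini and Hochberg's method over all genes and a threshold of 0.05. Balances between subunit forms were tested with exact two-sided permutation tests in SciPy 1.17.1, adjusted over the 3 muscle and ubiquitous pairs, and not adjusted for the other 5. The code was tested on simulated data. Promoter sequences and chromosomes came from RefSeq (GRCm38.p6).

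The members and lists were chosen with earlier results of these data known. All members of the form pairs were named, then the 3 genes with the smallest p per complex, any past the threshold, the 3 with the largest SD, those whose sexes did not overlap at an unadjusted p under 0.01, and of each other list the 2 with the smallest p. Other genes given were chosen after their values were seen. Marker lists covered cardiomyocytes, atrium, fast skeletal muscle, brown and other adipocytes, fibroblasts, endothelium and blood. Alternatives were median centring, quantile normalization, robust eBayes, a replicate block, array weights, the median of probe sets, each probe set by itself, a threshold of 0.1, atrial or fast skeletal genes as a covariate, and each array left out in turn. Fits without the 3 arrays highest in Myh4, or without the 2 lowest in Myl7, were added after seeing the data.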

Additional observations from a re-analysis of the deposited data

Results flagged for a closer look

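In 8 of 92 groups of 4 hearts, 1 heart lay far from the other 3. Its gap to the nearest, as a share of the group's range, exceeded Dixon's 95% critical value. In independent groups not picked by their values, chance would give about 4.6, or 5%. The groups here share the same 8 arrays, and some genes were picked for a large SD or a small p. The 8 can therefore not be judged against 4.6. Male 3 was high for Atp5e, at 0.231, with the other males between -0.191 and -0.177, and for Ndufa4l2, at 0.181, with the others between -0.022 and -0.0012. Female 4 was high for Sdhc, at 0.159, with the other females between -0.057 and -0.033, and low for Sdhb, at -0.019, with the others between 0.019 and 0.023. Female 3 was low for Cox7b, at -0.080, with the others between 0.067 and 0.084. Female 1 was low for Ndufa4l2, at -0.252, with the others between 0.0012 and 0.052. For the balance Cox6a2 minus Cox6a1, female 2 was low, at -0.233, with the others between 0.103 and 0.139. The median of the 17 ATP synthase genes was -0.047 in male 1, with the other males between 0.0099 and 0.010.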

How the results depend on the processing

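No member passed the adjusted threshold under any of the 20 alternatives, and the smallest adjusted p of any of the 35 named members was 0.356 (limma, Sdhd). Of these 35, 24 kept their direction under all 18 alternatives for single genes. The number of genes called over all genes was 7 and ran from 4 (without male 3) to 8, with 4 to 7 when single arrays were left out. With the replicate block 8 genes and 0 members were called. The correlations of same-numbered samples were 0.137, 0.097, 0.0062 and 0.091, and those of differently numbered ones ran from -0.130 to 0.0955. The labels do not say whether the numbers pair the hearts, and these few values cannot decide it. The number of members with an unadjusted p under 0.05 was 3, and 2 to 8 when single arrays were left out. It was 6 with the fast skeletal covariate, and 5 without the 3 arrays highest in Myh4 and without the 2 lowest in Myl7. The share of all genes at this threshold is not given for these refits.

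Without the 2 arrays lowest in Myl7 (female 1 and male 3), the median difference was 0.026 for the complex I accessory subunits, 0.044 for complex IV and 0.030 for ATP synthase; that of complex II was -0.053 without the 3 arrays highest in Myh4. Leaving out single arrays, the ATP synthase median ran from -0.020 to 0.033. Cox6a2 minus Cox6a1 turned to -0.0030 with quantile normalization, -0.0027 with array weights, -0.0060 with the fast skeletal covariate, -0.022 without the highest Myh4 arrays and -0.00050 without the lowest Myl7 arrays, and ran from -0.031 to 0.093 over single arrays left out. Cox7a1 minus Cox7a2 turned to 0.057 without the highest Myh4 arrays and ran from -0.100 to 0.011 over single arrays left out.

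Small differences of single genes also turned. Without the lowest Myl7 arrays, those of Cox6a1 (0.064), Cox6a2 (0.063), Ndufa4 (0.074), Ndufa4l2 (0.044), Ndufaf6 (0.016) and Uqcrc1 (0.012) became positive. Without the highest Myh4 arrays, Cox4i1 (-0.027), Cox8c (-0.00049) and ND2 (-0.0069) became negative, and Cd3e (0.0056) and Pvalb (0.013) positive. Ndufa4 was at 0.0028 with quantile normalization, 0.0049 with array weights and 0.00066 with the atrial covariate, and Ndufs5 at -0.042 with the fast skeletal covariate. Over single arrays left out, the range was -0.0031 to 0.108 for Cox4i1, -0.101 to 0.033 for Cox6a1, -0.117 to 0.010 for Cox6a2, -0.023 to 0.066 for Cox6b1, -0.075 to 0.016 for Cox8a, -0.0070 to 0.029 for Cox8c, -0.041 to 0.041 for Ndufa4, -0.110 to 0.014 for Ndufaf6 and -0.085 to 0.058 for Ndufs5. The cause of these turns was not tested. With 4 hearts a sex, centred values and no measure of brightness, dim probe sets could not be filtered out.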

Other observations

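The ribosomal protein genes gave values beside those of the respiratory chain. Of 71 mitochondrial ribosome genes, 25 (35.2%) had higher means in females and 46 lower, beside 49.6% higher among all genes. The median difference was -0.015. At an unadjusted p under 0.05 there were 5 (7.04%, beside 6.96% of all genes), and 0 passed the adjusted threshold in limma. Mrpl18 averaged -0.039 ± 0.019 in females and 0.185 ± 0.120 in males, and Mrpl23 averaged 0.112 ± 0.098 in females and -0.087 ± 0.096 in males (SD, n = 4 each). Of 58 genes of the cytosolic ribosome, 42 (72.4%) had higher means in females and 16 lower, with a median difference of 0.031. At an unadjusted p under 0.05 there were 4 (6.90%, beside 6.96% of all genes), all higher in females, and 0 passed the adjusted threshold in limma. For both ribosomes the share at the unadjusted threshold was near that of all genes. Rpl32 averaged 0.144 ± 0.126 in females and -0.067 ± 0.057 in males, and Rps3 averaged 0.036 ± 0.031 in females and -0.069 ± 0.061 in males (SD, n = 4 each).

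Markers of other cells had 0 genes past the adjusted threshold in limma. At an unadjusted p under 0.05 there were 4 of 10 adipocyte genes (40%, beside 6.96% of all genes). All 4 were higher in females, led by Retn (0.459 ± 0.139 SE). Over the whole adipocyte list 7 genes had higher and 3 lower means in females. The lower ones were Pnpla2, Pparg and Fabp4, with differences of -0.095, -0.038 and -0.0061. At the same unadjusted threshold there were also 4 of 9 fibroblast genes (44.4%). Of these, 3 collagen genes were lower in females, among them Col1a2 (-0.300 ± 0.098 SE) and Col3a1 (-0.440 ± 0.158 SE), and Dpt was higher (0.148 ± 0.063 SE). Over the whole fibroblast list 5 genes had higher and 4 lower means in females, with a median difference of 0.035. At the same threshold there were 2 of 9 endothelial genes (22.2%), both lower in females, Kdr (-0.195 ± 0.075 SE) and Cdh5 (-0.114 ± 0.045 SE). Over the whole endothelial list 4 genes had higher and 5 lower means in females. There were 0 of 9 atrial, 0 of 13 fast skeletal, 0 of 14 cardiomyocyte and 0 of 7 blood and immune genes, and 1 of 8 brown adipocyte genes (12.5%), Ppargc1a.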
